A study of Mus musculus with 6 samples.

Results

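Exocytosis genes of the islet, encoding the SNARE, synaptotagmin, Rab and active-zone proteins that bring hormone granules to the plasma membrane and fuse them, were followed through islet RNA sequencing. The set was chosen with earlier results of these data known. It held 41 genes named by symbol, out of 34945 gene symbols measured, and all 41 were found. Of these, 40 had enough counts to be tested and 1, Cplx1, did not. They were read in 4 groups by role: 13 SNAREs and fusion factors, 7 synaptotagmins with Doc2b, 8 Rab3 and Rab27 genes with their effectors, and 13 active-zone scaffolds and priming factors.

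Both groups of mice carried RIP-Cre, a Cre recombinase under the rat insulin promoter that acts in beta cells, and Rosa26-rtTA, a transcription activator that needs doxycycline. The Jag1 group (3 libraries) also carried tetO_Jag1, which encodes the Notch ligand Jagged1 behind a doxycycline-responsive promoter, and the control group (3 libraries) did not. Doxycycline was given in the drinking water of every mouse for 8 weeks, so the control islets were exposed to Cre, rtTA and the drug as well. Strain, age and sex, and whether each library came from a separate mouse, are not given in the sources used here, so a p-value here reflects only how these libraries vary, which may be technical.

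Fusion of a granule with the plasma membrane is driven by a bundle of SNARE proteins, in which a vesicle protein (VAMP) zips together with a syntaxin and a SNAP25-type protein at the plasma membrane. Several synaptotagmins and Doc2b bind calcium and membrane and couple calcium entry to that fusion, while Rab3 and Rab27 GTPases on the granule recruit effectors that tether and dock it. Active-zone scaffolds such as RIM, piccolo and bassoon hold primed granules near calcium channels, and beta cells use much of this presynaptic machinery to release insulin. The series asks whether Jagged1 in beta cells is enough to cause insulin secretory defects, and these genes encode the last steps of secretion.

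Library totals ran from 14283469 to 34348729 counts. Levels are given as CPM, counts scaled to library size, and the detection floor of 3 counts stood at 0.0853 to 0.204 CPM (counting error only). Jag1 stood at 4.01 to 4.28 CPM in control islets and 525 to 907 CPM in Jag1 islets, so every library followed its label. Transcripts of 15 acinar enzymes and regulators, from exocrine cells that surround islets, took 6.08% and 6.30% of the counts in Control 1 and Jag1 3 and 0.261% to 2.24% in the other libraries. Summed beta cell markers overlapped between groups (142800 to 183600 CPM in control, 147700 to 209500 CPM in Jag1), and none of the 8 was at 0. Control 3 and Jag1 2 stood apart in their genes of long exon length, as given with the active-zone genes.

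Promoters are shown for 4 of the 5 active-zone genes on which the comparison of groups turned, since these were the members whose values lay together below control. The 250 bases before the RefSeq transcript start (GRCm38.p6) were read 5′ to 3′ on the gene's strand. Capitals mark a match on either strand to a GC box (GGGCGG, in Unc13a and Pclo) or to the E-box CAGCTG (in Rimbp2), and the Bsn window held no match to the motifs searched. The fifth gene is Rims2, given by name only. The Unc13a window is chr8:71671758-71672007, minus strand. The Pclo window is chr5:14514668-14514917, plus strand. The Rimbp2 window is chr5:128953487-128953736, minus strand. The Bsn window is chr9:108190384-108190633, minus strand.
Unc13a: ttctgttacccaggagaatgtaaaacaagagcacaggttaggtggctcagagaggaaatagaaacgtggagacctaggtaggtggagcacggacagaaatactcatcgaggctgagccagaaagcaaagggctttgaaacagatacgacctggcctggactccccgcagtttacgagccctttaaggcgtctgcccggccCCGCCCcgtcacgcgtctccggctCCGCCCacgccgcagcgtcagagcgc
Pclo: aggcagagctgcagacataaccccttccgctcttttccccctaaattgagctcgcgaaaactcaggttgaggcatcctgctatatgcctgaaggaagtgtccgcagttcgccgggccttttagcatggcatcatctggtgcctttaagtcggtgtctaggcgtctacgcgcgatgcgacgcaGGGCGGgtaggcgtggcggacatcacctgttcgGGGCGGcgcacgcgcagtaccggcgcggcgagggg
Rimbp2: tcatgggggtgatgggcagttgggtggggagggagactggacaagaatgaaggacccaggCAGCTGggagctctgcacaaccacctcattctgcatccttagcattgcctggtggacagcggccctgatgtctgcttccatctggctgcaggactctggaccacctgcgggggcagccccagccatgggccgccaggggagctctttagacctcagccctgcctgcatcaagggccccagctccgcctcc
Bsn: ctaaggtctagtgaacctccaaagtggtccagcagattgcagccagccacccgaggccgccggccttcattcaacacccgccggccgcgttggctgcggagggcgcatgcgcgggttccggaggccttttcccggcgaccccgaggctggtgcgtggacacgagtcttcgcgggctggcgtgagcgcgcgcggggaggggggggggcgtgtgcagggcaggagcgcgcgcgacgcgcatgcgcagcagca

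These windows were rich in G and C, with 58% in Unc13a, 61.2% in Pclo, 63.6% in Rimbp2 and 71.6% in Bsn. Over the members, 31 of 41 genes had an entry, giving 33 promoters with a median of 63.6%, against 59.6% over 13966 promoters of genes tested here. The active-zone promoters were highest, with a median of 67.8% over 12, and the Rab promoters lowest, with 56.4% over 9. A GC box was present in 22 of 33 member promoters, against 55.6% of promoters of tested genes, and in Unc13a and Pclo but not in Rimbp2 or Bsn. The letters GTGGGAA, a core bound by the Notch effector RBPJ, were in 0 of the 33 windows, against 5.45% of promoters of tested genes. The E-box CAGCTG was in 9 of 33 (12.1% of promoters of tested genes), Rimbp2 among them, and the E-box CACGTG in 6 of 33 (7.93%). The cyclic AMP response element TGACGTCA was in 1, Stxbp3 (2.48%). The letters of no motif contain those of another, and these matches are descriptions of letters, not of binding.

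Levels were compared between genes as CPM per kb of exon, since longer transcripts give more counts. Exon length covers all annotated exons of a gene together, and can exceed the length of the transcript expressed. Syt13, a synaptotagmin that does not bind calcium, was the most abundant member, at 244 CPM per kb over the 6 libraries (219 to 292). It was followed by Cplx2, a complexin that clamps and activates assembled SNAREs, at 99.5 (90.5 to 110), and by Sytl4, the granule-docking protein granuphilin, at 75.4 (69.9 to 85.4). The ranges of these 3 genes did not overlap. Rab27a, the GTPase that granuphilin binds, stood at 56.9 (52.5 to 63.6), while Vamp2, the vesicle SNARE of insulin granules, stood at 49.7 (41.7 to 60.2) and Syt4 at 49.2 (40.9 to 60.1). Those 3 neighbours overlapped in range. The lowest members were Rims1 at 0.089, Cplx1 at 0.28, Rab27b at 0.34, Doc2b at 0.58 and Ppfia3 at 0.90 CPM per kb.

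**Figure D1:**
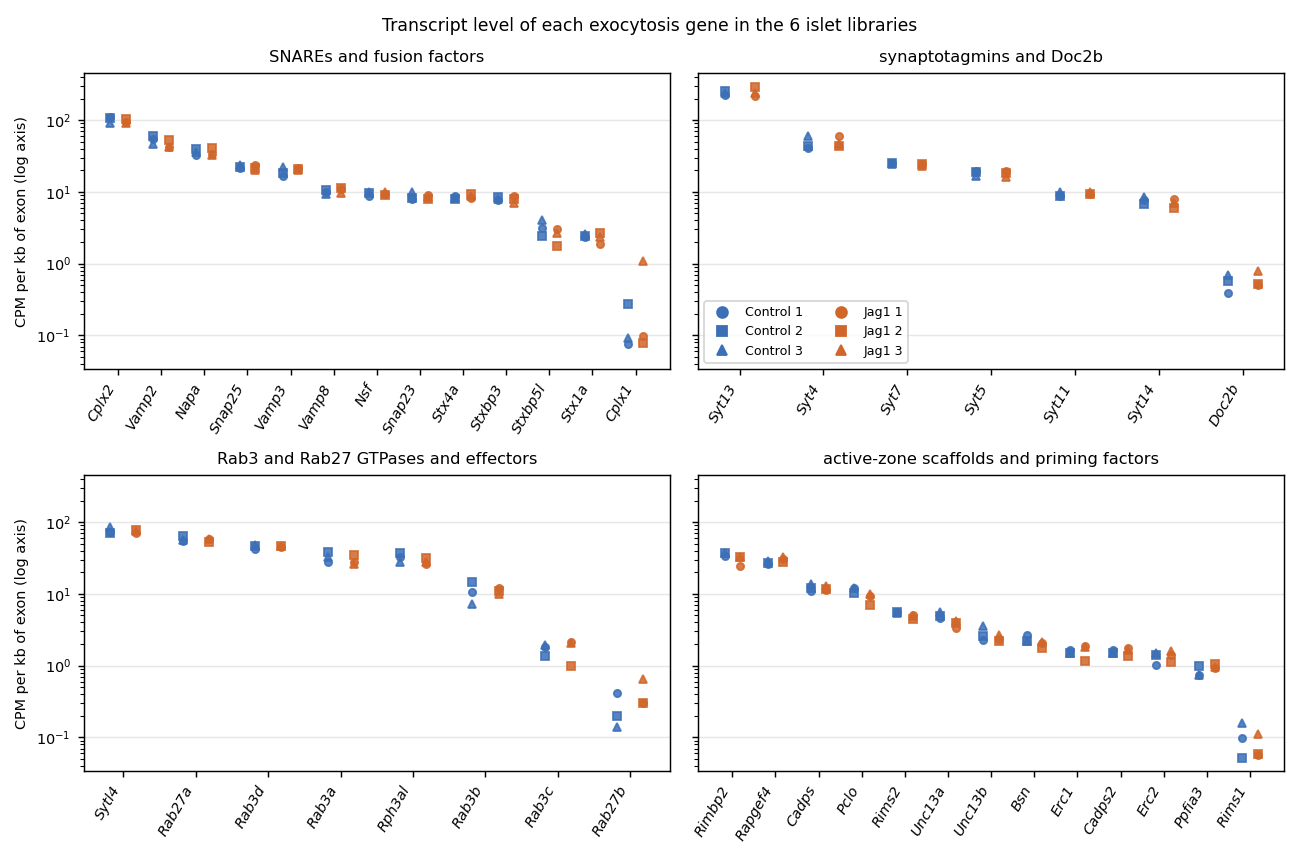
CPM per kb of exon (log axis) of all 41 exocytosis genes in each library, with genes ordered by mean level within each role and control libraries in blue to the left of Jag1 libraries in orange. Syt13 is the highest gene at 219 to 292 CPM per kb, and the 2 groups overlap in every gene but 5.

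Within some families 1 relative stood well above another, and in others the levels were closer. The closer pairs were Rab3d and Rab3a (45.6 and 31.3 CPM per kb), Unc13a and Unc13b (4.41 and 2.62), and Erc1 and Erc2 (1.58 and 1.35). Snap25, the plasma-membrane SNARE of neurons and endocrine cells, stood at 22.01 CPM per kb and its widely expressed relative Snap23 at 8.64. Stx1a, the syntaxin of neurons and beta cells, stood at 2.38, below Stx4a at 8.58, a syntaxin also used in insulin granule fusion. Cplx2 exceeded Cplx1 in every library, and Rims2 (5.16) exceeded Rims1 (0.089), the RIM scaffold better known from brain, while Rims3, a short RIM on the wider pathway list, stood at 28.02. Of the synaptotagmins with a calcium-sensing role in beta cells, Syt7 stood at 24.5 and Syt5 at 18.3 CPM per kb.

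Between groups, 0 of the 40 tested members passed edgeR's quasi-likelihood test after adjustment (Benjamini-Hochberg) over all 14073 genes tested, where 0.0213% passed. DESeq2 and limma-voom also called 0 members, against 0.256% and 0.0426% of all genes. An unadjusted edgeR p under 0.05 was met by 2 members, Unc13a and Pclo, both lower, against 4.97% of all genes in either direction and 2.75% in the lower direction. The smallest adjusted p of a member was 0.915 (edgeR). Of the 40 members, 24 had a log2 fold change below 0 and 16 above, against 51% below over all genes, and their median was -0.025, against -0.0041. In whole islets, fewer cells of a type and less RNA per cell cannot be told apart.

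By role, median log2 fold changes were -0.025 for 12 SNAREs and fusion factors, 0.055 for 7 synaptotagmins with Doc2b, -0.016 for 8 Rab genes and -0.19 for 13 active-zone genes. The 95% interval of the fold change stayed within 1.5-fold either way for 11 of 12 SNAREs and fusion factors, 6 of 7 synaptotagmins, 6 of 8 Rab genes and 8 of 13 active-zone genes. It stayed within 2-fold for 12, 7, 7 and 12 of them. Groups did not overlap for 5 of the 40, all lower in Jag1 and all on the active-zone list, against 10.5% of all genes in either direction and 5.21% with Jag1 lower. None was higher without overlap, against 5.3% of all genes. The difference between role groups was not tested.

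**Figure D2:**
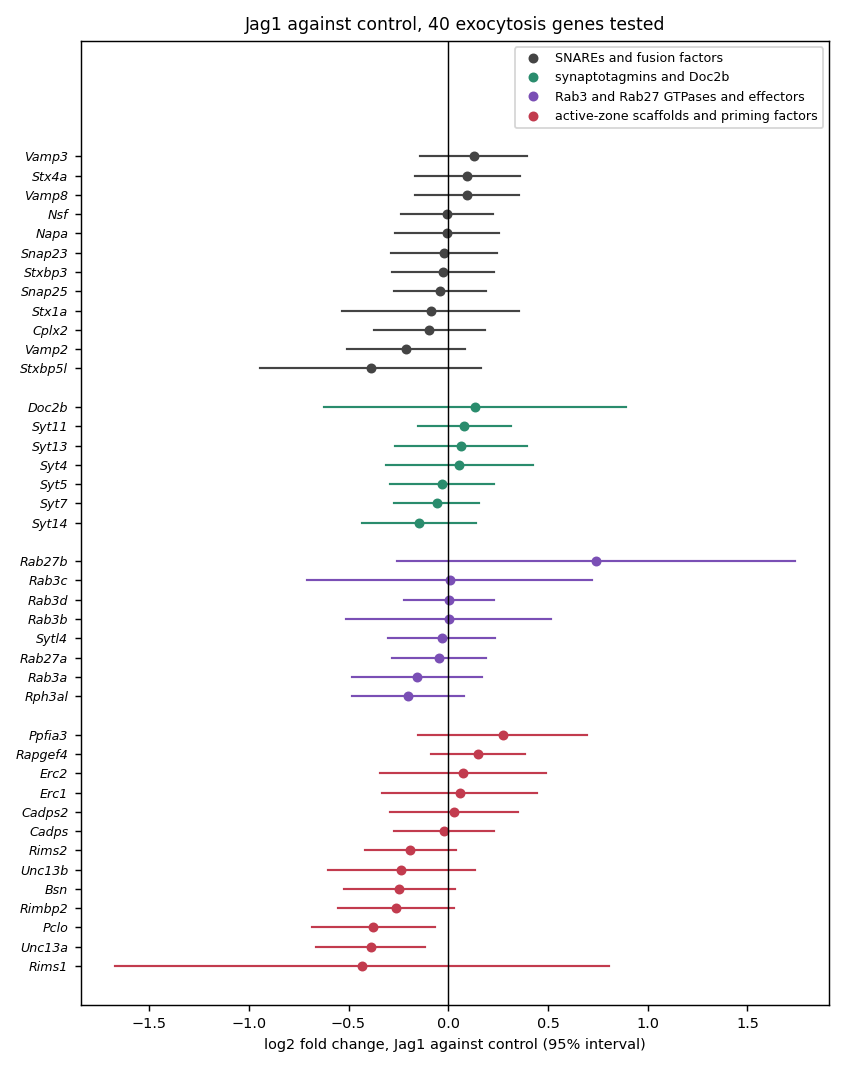
Log2 fold change of Jag1 against control with its 95% interval (edgeR) for the 40 members tested, coloured by role. The intervals of Unc13a and Pclo lie below 0, and those of the other 38 members cross it.

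Among the SNAREs, the pair that forms the bundle at the plasma membrane did not differ beyond its spread. Snap25 had 145, 150 and 160 CPM in Control 1 to 3 and 161, 146 and 135 CPM in Jag1 1 to 3, so the groups overlapped. Its log2 fold change was -0.042 (SE 0.11, edgeR adjusted p = 0.988), with an interval from 0.827-fold to 1.14-fold. Stx1a had 6.26, 6.55 and 6.87 CPM in control islets and 4.94, 7.22 and 6.26 CPM in Jag1 islets (log2 fold change -0.089, interval 0.692-fold to 1.28-fold). Their widely expressed relatives were as close, with -0.021 for Snap23 and 0.096 for Stx4a.

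Vamp2 had the second lowest log2 fold change of the SNARE list, after Stxbp5l. It had 205, 230 and 175 CPM in control islets and 159, 204 and 163 CPM in Jag1 islets, and Jag1 2 lay among the control values. The log2 fold change was -0.21 (SE 0.13, edgeR adjusted p = 0.955), with an interval from 0.703-fold to 1.06-fold. It was -0.12 without Control 2, -0.33 without Jag1 2, and it was -0.43 once Control 3 and Jag1 2 were both left out. The vesicle SNAREs Vamp3 and Vamp8, which serve other compartments and cell types as well, had 0.13 and 0.094.

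Genes that recycle and regulate SNAREs were mostly close to control, and Nsf had the narrowest interval of the list. Nsf, the ATPase that takes spent SNARE bundles apart, had 78.9 ± 5.72 CPM in control islets and 78.6 ± 3.77 CPM in Jag1 islets (SD, n = 3 each), and its adaptor Napa had 136 ± 12.9 and 135 ± 15.5 CPM. Intervals ran from 0.849-fold to 1.17-fold for Nsf and from 0.831-fold to 1.19-fold for Napa. Cplx2 had 506 ± 46.9 and 474 ± 30.6 CPM (log2 fold change -0.094). Stxbp3, the Munc18 protein that binds syntaxin 4, had 43.02 ± 2.03 and 42.2 ± 4.74 CPM. Stxbp5l, a tomosyn that holds SNAREs inactive, varied more, with 27.1, 20.8 and 34.96 CPM in control islets and 25.8, 15.1 and 22.6 CPM in Jag1 islets. Its log2 fold change of -0.39 had the widest interval of the SNARE group, from -0.94 to 0.16, and it was 0.013 without Control 3 and Jag1 2.

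Cplx1, the complexin of brain synapses, was at the edge of detection, with 3, 11 and 3 counts in Control 1 to 3 and 4, 6 and 40 counts in Jag1 1 to 3. The 1 high value, 2.36 CPM, lay in Jag1 3, against 0.165 to 0.605 CPM in the other 5 libraries. That library also held the highest values of Vip, a neuropeptide gene, and of Prph, which encodes a neuronal intermediate filament. Vip had 47.9 CPM in Jag1 3 and 0 to 6.33 CPM elsewhere. Prph had 6.67 CPM in Jag1 3 and 0.055 to 1.16 CPM elsewhere. The part of neuronal RNA in the Cplx1 value was not tested.

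Synaptotagmins and Doc2b were close to control throughout. Syt7, a main calcium sensor of insulin granules, had 191, 190 and 181 CPM in control islets. It had 185, 181 and 174 CPM in Jag1 islets, with overlapping groups. Relative to the mean, Syt7 had the smallest spread within each group on its list. Its log2 fold change was -0.058 (SE 0.097, edgeR adjusted p = 0.977), with an interval from 0.829-fold to 1.11-fold. Syt13 had 853, 953 and 886 CPM in control islets and 823, 1100.0 and 892 CPM in Jag1 islets, where Jag1 2 was highest and Jag1 1 lowest of all 6. Syt4, which rises as beta cells mature and lowers their calcium sensitivity, had 159, 172 and 232 CPM in control islets and 234, 167 and 184 CPM in Jag1 islets, a spread within each group larger than the difference of their means (188 and 195 CPM). Log2 fold changes of the remaining genes of this list ran from -0.14 for Syt14 to 0.13 for Doc2b, a sensor that responds to low calcium. Doc2b, at 1.70 to 3.43 CPM, had the widest interval of the list, from 0.65-fold to 1.85-fold.

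Among the Rab genes, those of highest level were again flat. Sytl4 had 371, 364 and 438 CPM in control islets and 358, 400 and 388 CPM in Jag1 islets (log2 fold change -0.033). Rab27a had 210, 247 and 216 CPM in control islets and 224, 204 and 223 CPM in Jag1 islets (-0.048). Rab3d, a Rab3 form of secretory granules, had 174, 196 and 203 CPM in control islets and 186, 197 and 192 CPM in Jag1 islets, with an interval from 0.857-fold to 1.17-fold. Rab3a, the form best known from synaptic vesicles, and Rph3al, the Rab effector Noc2 of endocrine cells, had -0.16 and -0.20, with overlapping groups for each. Without Control 2 these values were -0.021 and -0.097. Rab3b and Rab3c had 0.0014 and 0.0068, with intervals from 0.701-fold to 1.43-fold and from 0.612-fold to 1.65-fold.

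Rab27b, a relative of Rab27a found in exocrine and other secretory cells, had the highest log2 fold change of the members, 0.74 (SE 0.45, edgeR adjusted p = 0.955), at a low level. It had 4.39, 2.09 and 1.5 CPM in Control 1 to 3 and 3.24, 3.24 and 7.03 CPM in Jag1 1 to 3, so the groups overlapped. The 2 highest values were those of Jag1 3 and Control 1, which also held the most acinar transcripts. Without Jag1 3 the log2 fold change was 0.28, and without Control 1 it was 1.31.

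Because acinar content varied within both groups, the slope of each gene on an acinar score (the mean log2 CPM of the 15 acinar markers) was tested with the group in the model. Of all genes, 0.753% were called with a positive slope and 0.00711% with a negative slope (edgeR, adjusted over 14073 genes), and 0 of the 40 members were called. The smallest p-values were those of Rab27b, with a slope of 0.31 per log2 unit (SE 0.085, edgeR adjusted p = 0.24), and Syt4, with -0.11 (edgeR adjusted p = 0.363). With single libraries left out, the edgeR adjusted p of the Rab27b slope ran from 0.156 (without Jag1 2) to 0.8 (without Control 1). It was 0.855 without Control 1 and Jag1 3 together. Across the 6 libraries Rab27b had Pearson's r = 0.757 (exact permutation p = 0.0792) and Spearman's rho = 0.829 (exact permutation p = 0.0583), and r = 0.78 without Control 3 and Jag1 1, the libraries farthest from the median score. Syt4 had r = -0.845 (exact permutation p = 0.0639) and rho = -0.543 (exact permutation p = 0.297), and r = 0.146 without those libraries. Control 3 and Jag1 1 had the lowest acinar scores, 6.21 and 6.89, against 8.72 to 10.77 in the rest. The few libraries left span a narrow range, so r over them cannot show whether a relation holds. Snap25 had the smallest unadjusted value, r = -0.908 (exact permutation p = 0.025) and rho = -0.886 (exact permutation p = 0.0333), with r = -0.649 without Control 3 and Jag1 1. Over the 40 correlations computed, no adjusted exact permutation p was below 0.634. Rab3d and Vamp8, which acinar cells also use, had slopes of -0.021 and -0.005.

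Both members with an unadjusted p under 0.05 were active-zone genes. Unc13a, which encodes the Munc13 protein that primes vesicles for fusion, had 57.6, 62.2 and 69.6 CPM in Control 1 to 3 and 41.7, 50.3 and 52.6 CPM in Jag1 1 to 3. Every Jag1 library lay below every control library. The means were 63.2 ± 6.06 and 48.2 ± 5.77 CPM (SD, n = 3 each), with a log2 fold change of -0.39 (SE 0.12, 1.31-fold lower, unadjusted p = 0.00926, adjusted p = 0.915 by edgeR).

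Pclo, the giant scaffold piccolo, which tethers calcium channels and Epac2 at release sites, had 268, 232 and 271 CPM in control islets and 213, 158 and 224 CPM in Jag1 islets. Jag1 2 was the lowest and the groups did not overlap. The log2 fold change was -0.37 (SE 0.14, unadjusted p = 0.0211, adjusted p = 0.947 by edgeR), and it was -0.23 without Jag1 2. Its partner Bsn, bassoon, had 42.6, 34.9 and 35.7 CPM in control islets and 33.3, 28.1 and 34.3 CPM in Jag1 islets (log2 fold change -0.24, SE 0.13). The nearest values of the 2 groups, 34.9 in Control 2 and 34.3 in Jag1 3, were close to each other. Without Control 1 the value for Bsn was -0.14, and without Jag1 2 it was -0.16.

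Rimbp2, which links RIM to calcium channels, had 266, 298 and 291 CPM in control islets and 193, 259 and 261 CPM in Jag1 islets. The groups were separate, with Jag1 1 well below the rest. The log2 fold change of -0.26 (SE 0.13, edgeR adjusted p = 0.955) was -0.13 without Jag1 1. Rims2, a RIM scaffold that links granules to calcium channels, had 58.2, 57.3 and 56.04 CPM in control islets and 52.7, 46.4 and 51.3 CPM in Jag1 islets, with a log2 fold change of -0.19 (SE 0.10). Relative to its mean, it had the smallest control spread on the list, 57.2 ± 1.08 CPM (SD, n = 3).

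**Figure D3:**
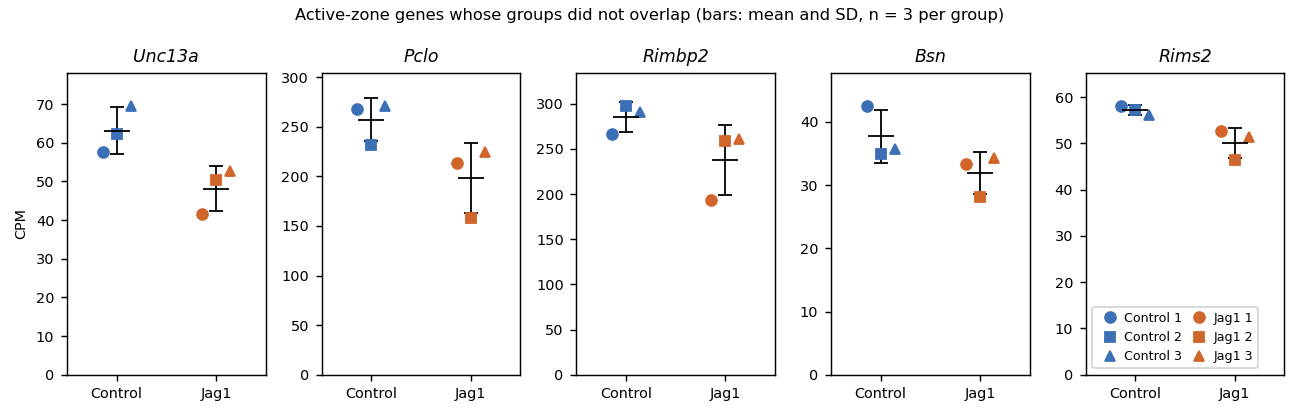
CPM of the 5 active-zone genes whose groups did not overlap, by library, with black bars for the mean and SD of 3 libraries. Every orange Jag1 point lies below every blue control point, and Bsn has the narrowest gap, from 34.9 to 34.3 CPM.

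The other 8 active-zone genes overlapped between groups. Unc13b, the second Munc13 gene, had a log2 fold change of -0.24 that was -0.020 without Control 3. Rapgef4, which encodes the cyclic AMP sensor Epac2 that binds RIM2 and piccolo, had 175, 183 and 191 CPM in control islets and 207, 183 and 219 CPM in Jag1 islets, a log2 fold change of 0.15 with an interval from 0.943-fold to 1.31-fold. Cadps and Cadps2, priming factors of dense-core granules, had -0.021 and 0.029, and the ELKS scaffold genes Erc1 and Erc2 had 0.058 and 0.072. Ppfia3, a liprin scaffold, had 0.27 at 5.76 to 8.45 CPM, and Rims1 had -0.43 at 0.385 to 1.16 CPM, with the widest interval of all members, from 0.314-fold to 1.75-fold. Without Control 3 the value for Rims1 was 0.0038, and without Control 3 and Jag1 2 it was 0.18. Summed over the 13 genes, the level was 1140, 1167 and 1261 CPM in Control 1 to 3 and 1037, 999 and 1165 CPM in Jag1 1 to 3, so the sums of the groups overlapped.

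Active-zone genes have long exon lengths, and genes of long exon length as a class had a median log2 fold change below 0. That difference lay mostly in Control 3 and Jag1 2, as given below. When all genes were ranked by exon length (GENCODE vM21) and divided into 10 classes of near equal size, the median log2 fold change went from 0.077 in the shortest class (up to 1723 bases) to -0.10 in the longest (from 10020 bases). In the longest class 77% of genes were below 0 and 12% had separate groups with Jag1 lower, against 37.9% and 3.03% in the shortest. The median exon length was 10389 bases for the 13 active-zone genes, against 4051 for the SNAREs, 4361 for the synaptotagmins and 4037.5 for the Rab genes. Of the active-zone genes 7 fell in the longest class, Unc13a, Pclo, Bsn and Rims2 among them, and Rimbp2, at 7935 bases, fell in the ninth. Of the 7 in the longest class, 6 were below 0 and 4 had separate groups with Jag1 lower, and this was not tested against the class. Relative to the median of their own class, 7 of the 13 were below and 6 above, with a median difference of -0.087.

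By library, the longest class had a median log2 deviation from its mean over the 6 libraries of 0.15 in Control 3 and -0.17 in Jag1 2. The other 4 libraries were between -0.033 and 0.058. Without Control 3 and Jag1 2 the active-zone median was 0.087, with 5 of 13 genes below 0, and without Control 3 alone it was 0.0038. Without both libraries the 5 genes with separate groups had -0.35 for Unc13a, -0.20 for Pclo, -0.32 for Rimbp2, -0.20 for Bsn and -0.15 for Rims2. Their negative signs follow from the choice of genes with every Jag1 value below every control value, so the signs cannot test the part of length. When the length trend of each library was taken into the model, the active-zone median was -0.053, Unc13a had -0.28, Pclo -0.21, Rimbp2 -0.21, Bsn -0.12 and Rims2 -0.11, and 0 members were called. These settings were chosen after seeing the data.

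**Figure D4:**
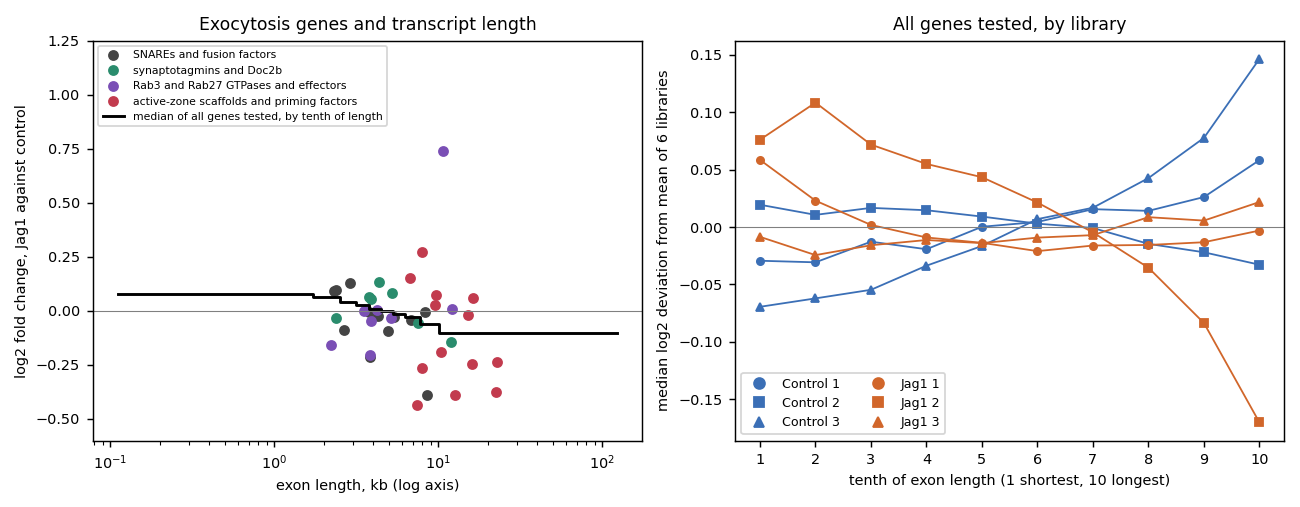
Left, log2 fold change of the 40 members against exon length in kb (log axis), with a black step line for the median of all genes tested in each length class. Right, the median log2 deviation of each library from the mean of the 6 libraries by length class, where Control 3 rises to 0.15 and Jag1 2 falls to -0.17 in the longest class.

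Markers of other islet cells moved between the groups as well. Alpha cell markers (35280 to 57140 CPM in control, 14940 to 32990 CPM in Jag1) and delta cell markers (3395 to 4562 and 2681 to 3271 CPM) had lower sums without overlap. Of the single alpha markers 6 of 6 had a log2 fold change below 0 and 3 had separate groups, and of the delta markers 3 of 3 and 2. Duct markers (218.5 to 248 and 303 to 346 CPM) and stellate and pericyte markers (176 to 218 and 256 to 367 CPM) had higher sums without overlap. Of the single duct markers 6 of 7 had a log2 fold change above 0 and 2 had separate groups, and of the stellate and pericyte markers 7 of 7 and 2. Sums of gamma, endothelial, immune and Schwann markers overlapped, and no marker on these lists was at 0 in every library. Alpha and delta cells use the same exocytosis machinery, and the part of cell content in the active-zone values was not tested.

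Ratios of related genes within a library do not depend on library scaling, and 8 such pairs were compared. The log2 ratio of Vamp2 to Vamp8 was 3.15, 3.2 and 3.01 in Control 1, 2 and 3, while the Jag1 libraries in the same order had 2.64, 2.95 and 2.86, the only one of the 8 pairs whose groups did not overlap. Its difference was -0.304 (exact 2-sided permutation p = 0.1, the smallest that 20 splits allow; adjusted p = 0.8 over 8 pairs), and it stayed between -0.37 and -0.216 when single libraries were left out. Snap25 to Snap23 held at 2.02 ± 0.112 in control and 2.00 ± 0.107 in Jag1 libraries (SD, n = 3 each). Unc13a to Unc13b was 0.15, 0.081 and -0.24 in control and -0.35, 0.021 and -0.22 in Jag1 libraries, with overlap. Stx1a to Stx4a differed by -0.202, Rab3a to Rab3d by -0.162, Cadps to Cadps2 by -0.041 and Erc2 to Erc1 by 0.048, all with overlap, and Cplx1 to Cplx2 by 0.719, which became -0.358 without Jag1 3. No pair could reach a p below 0.1 in this design.

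**Figure D5:**
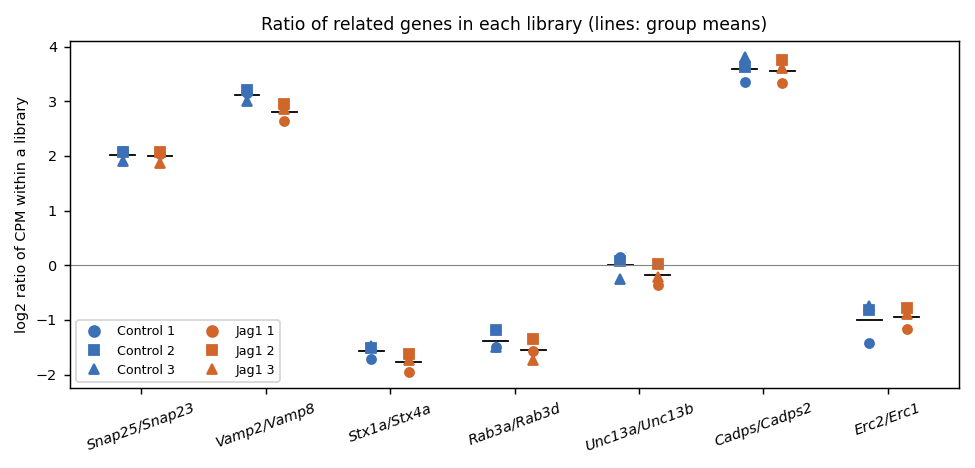
Log2 ratio of CPM of 2 related genes within each library for 7 of the 8 pairs (Cplx1 to Cplx2 is left out for its low counts), with black lines for group means. Vamp2 to Vamp8 is the pair whose Jag1 points, 2.64 to 2.95, all lie below the control points, 3.01 to 3.2.

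The rest of the pathway was read from a second list of 79 measured genes, covering other SNAREs, synaptotagmins, Rab regulators, active-zone genes and the exocyst, a tethering complex. Of 73 tested, 44 were below 0 and 29 above, with a median of -0.022, and 0 were called by edgeR, while 3 lower and 1 higher had an unadjusted p under 0.05 (4.97% of all genes). Groups did not overlap for 8 of the 73 (10.5% of all genes), of which 5 were lower (5.21% of all genes) and 3 higher (5.3%), shares near those of all genes. Of the 19 other active-zone and priming genes tested, 12 were below 0 and 7 above. Their median was -0.022, against -0.19 for the 13 active-zone members. Groups did not overlap for 2 of the 19, both lower in Jag1 (5.21% of all genes). Vamp1, a vesicle SNARE related to Vamp2, had 21.3, 18.8 and 19.5 CPM in control islets and 15.3, 16.5 and 16.2 CPM in Jag1 islets (log2 fold change -0.31). Syn1, the synaptic vesicle protein synapsin I, had 47.4, 63.03 and 43.7 CPM in control islets and 40.8, 40.04 and 43.1 CPM in Jag1 islets (-0.32). Exocyst genes went both ways, with -0.26 for Exoc1 and 0.32 for Exoc8, and Ralb, a GTPase that binds the exocyst, had 0.24. These 5 were named because their unadjusted edgeR p was the smallest on this list. All 5 had separate groups, which such a choice favours, and their edgeR adjusted p was 0.955 each.

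In the authors' deposited table of their limma comparison, 40 members were listed and the smallest adjusted p among them was 0.929. Unc13a and Pclo had log2 fold changes of -0.39 each in the authors' deposited table, with unadjusted p of 0.0118 and 0.0261.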

How the data were processed

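RNA was measured in 6 islet libraries made with a TruSeq Stranded mRNA kit, per the labels' protocols. The authors deposited estimated counts per gene symbol, as whole numbers that are not normalized. Per the submitters' processing notes, bcl2fastq, kallisto and limma were used with GRCm38 (mm10), without stated versions. For the annotation and the summing of transcripts, nothing is given in these sources. The authors' deposited limma table holds log2 fold changes, mean log2 expression, p-values, adjusted p-values and a score in each of 2 further columns, per the file headers. A row naming no gene took 0.00896% to 0.0155% of counts and was left out.

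Counts were tested in R 4.3.3 with edgeR 4.0.16. The fit used filterByExpr with a minimum count of 10, TMM scaling, the robust quasi-likelihood test, all 6 libraries and no covariates. P-values were adjusted (Benjamini-Hochberg, threshold 0.05) over 14073 genes. CPM used TMM library sizes, and log2 CPM a prior count of 2. The SE is the log2 fold change over the root of F, and 95% intervals are from the same fit. Exon lengths and positions are from GENCODE vM21 (all 41 members matched), with the exons of all transcripts of a gene merged. Promoter sequences and starts are RefSeq's. DESeq2 1.42.0, limma 3.58.1 (voom), other scalings and filters, a replicate block, an acinar covariate and left-out libraries were alternatives. Steps were tested on simulated data. Figures used matplotlib 3.10.9.

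Members and lists were chosen with earlier results of these data known. Named genes are Jag1, members with an unadjusted p under 0.05, the 3 of highest level per kb in each role, members called for the acinar slope, both genes of each pair, and the 5 other pathway genes of smallest p. Rims2, Bsn, Rab27b, Stxbp5l, Sv2c and the remaining members given with values were chosen after their values were seen. For 1 marker list of the design, the summed level is not reported here.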

Additional observations from a re-analysis of the deposited data

How the results depend on the processing

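No exocytosis gene was called under any of 19 alternatives, against 2 to 36 of all genes. The count of all genes called was 3, and 9 with no filter on low counts, 36 by DESeq2, 6 by limma-voom, 7 without Control 1 and Jag1 3 together, 10 without Control 3 and Jag1 2 together, and 2 to 6 with single libraries left out. The median over the exocytosis genes was -0.073 without Control 1 and Jag1 3 together, 0.020 without Control 3 and Jag1 2 together, and -0.071 to 0.0038 with single libraries left out. The active-zone median was -0.053 with the length trend in the model, 0.087 without Control 3 and Jag1 2 together (5 genes below 0), and -0.21 to 0.0038 with single libraries left out. The acinar slope called 1 member, Stxbp5l, among 143 genes without Control 1 and Jag1 3 together.

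Some log2 fold changes, most of them small, changed sign. Napa had 0.013 with upper-quartile scaling and 0.0063 with no filter, and Cadps2 and Erc1 had -0.0073 and -0.0035 by limma-voom. Without Control 1 and Jag1 3 together Cplx2 had 0.0060, Syt4 -0.0012, Rab3d -0.053 and Erc2 -0.20, and the log2 ratio differences were 0.071 for Snap25 to Snap23, -0.688 for Cplx1 to Cplx2 and -0.195 for Erc2 to Erc1. With the length trend in the model Rab3d had -0.0027 and Cadps 0.11. Without Control 3 and Jag1 2 together Syt13 had -0.077, Sytl4 0.020, Cadps 0.087, Snap25 0.0026, Snap23 0.13, Vamp8 -0.0040, Unc13b 0.044, Stxbp5l 0.013 and Rims1 0.18. With single libraries left out, ranges were -0.096 to 0.23 for Syt4, -0.053 to 0.049 for Rab3d, -0.078 to 0.21 for Erc2, -0.10 to 0.058 for Napa, -0.089 to 0.027 for Rab27a, -0.082 to 0.056 for Sytl4, -0.092 to 0.068 for Cadps, -0.083 to 0.088 for Snap23, -0.23 to 0.045 for Stx1a, -0.064 to 0.14 for Cadps2, -0.078 to 0.26 for Erc1, -0.063 to 0.15 for Syt13 and -0.11 to 0.016 for Snap25. Ranges of the ratio differences were -0.0925 to 0.0324 for Snap25 to Snap23, -0.358 to 1.31 for Cplx1 to Cplx2, -0.161 to 0.0758 for Cadps to Cadps2 and -0.171 to 0.176 for Erc2 to Erc1. The cause was not tested for these changes.

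Deviations from the group mean in same-numbered libraries had r = -0.186, 0.11 and -0.294 across genes for numbers 1 to 3. The highest r of any control and Jag1 library was 0.294, for Control 1 and Jag1 3. Deviations within a group depend on each other, so this cannot show whether same-numbered libraries share a batch, and the labels do not say. With the replicate block 3 genes and 0 members were called, and Unc13a and Pclo had -0.39 each. Depth limits Rims1, Rab27b and Doc2b, at under 10 CPM, where intervals are wide, and Cplx1, which was not tested. Stx1a and Ppfia3 were under 10 CPM as well, with intervals from 0.692-fold to 1.28-fold and from 0.901-fold to 1.62-fold.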

Other observations

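Sv2c, a synaptic vesicle glycoprotein gene on the wider pathway list, had 8.33 CPM in Jag1 3, the library with the highest Vip and Cplx1 values, and 1.65 to 2.92 CPM in the other 5 libraries. The Schwann cell marker sum of that library, 33.3 CPM, was also the highest of the 6 (27.3 to 29.6 CPM elsewhere). Sv2c had a log2 fold change of 1.01 (SE 0.53, edgeR adjusted p = 0.955).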
